A study of Homo sapiens with 4 samples.

Results

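Integrins and laminins were followed across 4 RNA libraries of Daoy, a human medulloblastoma line long kept in culture. The 38 genes were the rows of the deposited count table named as integrin alpha chains (18 genes), integrin beta chains (8) and laminin chains (12, with 5 alpha, 4 beta and 3 gamma), out of 59384 gene names in all. Infection with lentivirus was common to all libraries: 2 came from cells given the pLKO control virus (pLKO 1 and pLKO 2, genotype WT) and 2 from cells given the shFABP4 virus (shFABP4 1 and shFABP4 2, genotype FABP4 knockdown). FABP4 is a fatty acid binding protein, and the series title concerns how it promotes growth of medulloblastoma. The labels name neither the shRNA sequence nor the day of harvest, and nothing says that libraries of a group came from separate infections. The error behind every p-value is therefore the scatter among these libraries, and it may be technical only. In bulk RNA, a change in the mix of cells and a change of RNA per cell cannot be told apart.

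Laminins are basement membrane glycoproteins, each built from an alpha, a beta and a gamma chain that are assembled inside the cell before secretion. Integrins are the main receptors for the extracellular matrix, each a pair of an alpha and a beta chain at the cell surface: the alpha chain largely sets the ligand, and ITGB1 pairs with most of the alpha chains. ITGA3, ITGA6 and ITGA7 give laminin receptors, ITGA1, ITGA2, ITGA10 and ITGA11 give collagen receptors, and ITGA5, ITGA8, ITGAV and ITGA2B give receptors for the RGD motif of fibronectin, vitronectin and related proteins. The beta chain ITGB4 pairs with ITGA6 and ties laminin to keratin filaments at hemidesmosomes. In the brain, laminins line the pial surface and the vessels, and granule neuron precursors, the cells from which sonic hedgehog medulloblastoma arises, meet laminin at the surface of the cerebellum.

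Depth ranged from 2539862 fragments in shFABP4 1 to 20431660 in shFABP4 2. shFABP4 1 stood apart: it held fragments in 51762 gene names against 22350 to 25560 in the other 3 libraries, and 6.55 fragments per kb over olfactory receptor genes against 0.213 to 0.355. From 2657 coding genes with no fragment elsewhere, this background was 3.81 fragments per kb at a GC content under 40% and 18.9 per kb at 60% or more, and by this estimate it made up 54.6% of the fragments of shFABP4 1. FABP4 itself had 1 and 6 fragments in pLKO 1 and 2, 14 in shFABP4 1 (background expected 5.21) and 0 in shFABP4 2, which is too few to check the knockdown label. Outside shFABP4 1, VIM, S100A6, KRT8 and KRT18 had at least 8509 fragments each and CD44 at least 2975. Other mesenchymal markers were scarcer in the controls. In pLKO 1, pLKO 2 and shFABP4 2, NES had 35, 69 and 180 fragments, TAGLN 38, 75 and 967 and THY1 0, 0 and 6. The other epithelial markers had at most 84 fragments each in these libraries, with CDH1 at 0, 2 and 0. The granule lineage genes ATOH1 and BARHL1 had 0 in the same libraries. Of the other genes of that list of 10, GLI1, ZIC2, GLI2 and SFRP1 were higher in shFABP4 2. GLI1 had 49, 72 and 479 fragments in pLKO 1, pLKO 2 and shFABP4 2, and ZIC2 38, 71 and 386. GLI2 had 17, 23 and 187 and SFRP1 6, 16 and 942. The rest were near 0: PAX6 had 3, 10 and 3, ZIC1 0, 3 and 3, NEUROD1 0, 1 and 0 and HHIP 1, 0 and 7. The list summed to 12.7, 14.2 and 98.2 CPM (409 in shFABP4 1). Leukocyte markers summed to 7.68, 6.86 and 8.91 CPM in pLKO 1, pLKO 2 and shFABP4 2 and to 164 CPM in shFABP4 1 (8 genes, with LYZ and TYROBP at 0 outside shFABP4 1). Endothelial markers summed to 1.11, 0.939 and 1.76 CPM in pLKO 1, pLKO 2 and shFABP4 2 and to 231 CPM in shFABP4 1, and the 6 fibroblast markers to 5.67, 5.06, 51.6 and 301 CPM in the same order, with COL1A1 at 41, 55, 1033 and 585 fragments. The part of other cells in the results was not tested.

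Among all 38 genes, LAMB3 and ITGA3 were the most abundant in the control cells, and 12 were all but silent in both controls and in shFABP4 2. LAMA1 (1 and 11 fragments in pLKO 1 and 2) and ITGB2 (10 and 7) were similarly scarce in the controls. They are not among the 12 because they had 105 and 77 fragments in shFABP4 2. Per kb of exon, on the scale of TMM-normalised CPM (fragments scaled to library totals that TMM has adjusted), LAMB3 stood at 309 and 307 and ITGA3 at 157 and 154 in pLKO 1 and 2, followed by ITGA5 at 71.1 and 70.9, ITGB5 at 31.9 and 34.7 and LAMB2 at 29.7 and 31.4. The plot of levels shows that the 2 control libraries lay close together for every abundant gene. In shFABP4 2 the order at the top was different, with LAMB2 at 114 beside LAMB3 at 116 and ITGA3 at 126. ITGA10 in that library reached 30.1, from 8.09 and 8.29 in the controls.

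**Figure D1:**
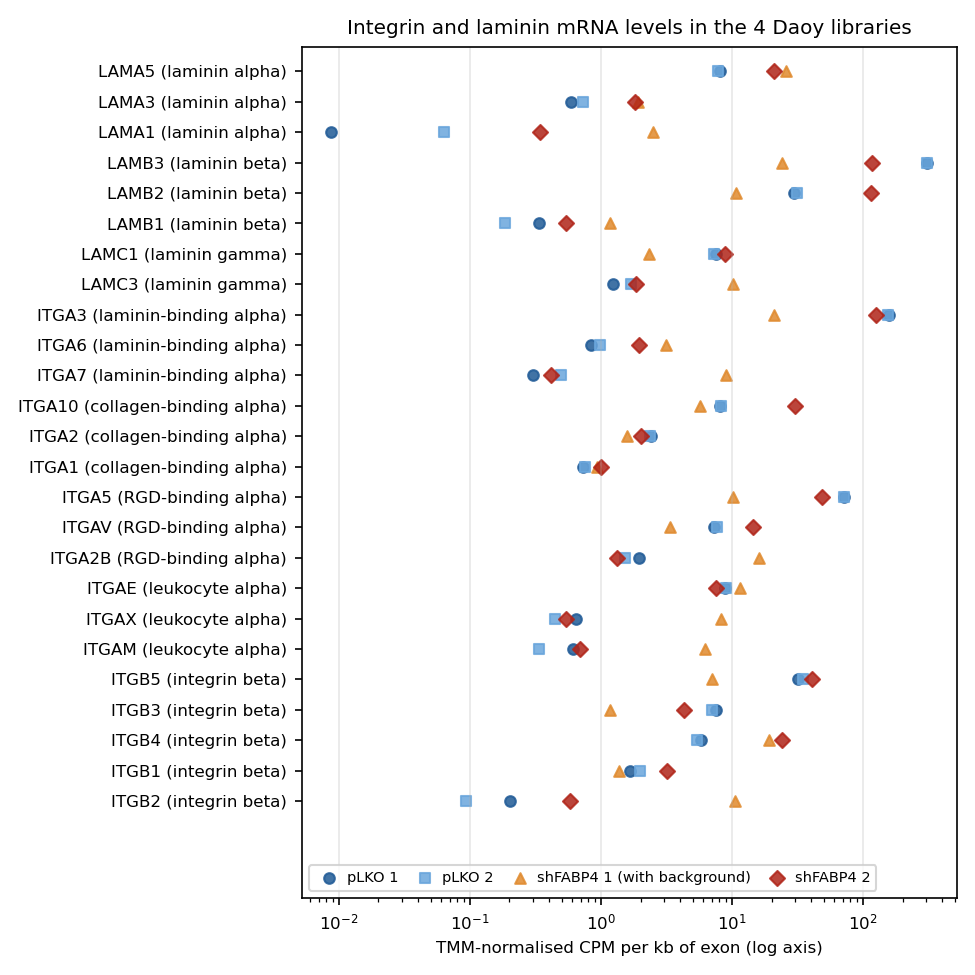
TMM-normalised CPM per kb of exon (log axis) of 25 integrin and laminin genes with at least 50 fragments in pLKO 1, pLKO 2 or shFABP4 2, 1 point per library, with the role of each chain in brackets. The pLKO points of the abundant genes overlie each other; LAMB2, ITGA10, ITGB4 and ITGAV lie to the right and LAMB3 to the left of them in shFABP4 2, and the shFABP4 1 points include the background.

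With all 4 libraries in 1 edgeR quasi-likelihood fit (adjusted p, Benjamini-Hochberg over 14735 genes, threshold 0.05), 0 of the 30 members with enough fragments to be tested passed, as did 0% of all genes tested. At an unadjusted p under 0.05 there were 6 members (ITGA4, ITGA6, ITGB2, ITGB4, LAMA1 and LAMA3), where 12.3% of all genes tested lay under it. Each had a positive log2 fold change. ITGA4 and LAMA1 passed the low-count filter of this fit only through the shFABP4 libraries, so their sign was fixed beforehand. ITGB2 (1.11 and 0.506 CPM per library total in pLKO 1 and 2) would have failed that filter on the controls alone, so nothing is drawn from its sign. DESeq2 called 4 members higher in shFABP4 (ITGA11, ITGAL, ITGB2 and LAMA1) and 0 lower, against 3.87% of its genes called higher. All 4 had more fragments in shFABP4 1, the shallowest library, than in any other, at 0.984 to 2.90 times the background expected there. The same filter applied to DESeq2, and ITGAL (0.890 and 0.506 CPM per library total in pLKO 1 and 2), ITGB2 and LAMA1 needed a shFABP4 library to pass it. Nothing is drawn from the direction of these calls. The median log2 fold change over all 4 libraries was 1.49 for the members and 0.34 for all genes on the TMM scale, and 3.90 and 2.43 with high-signal scaling. The biological coefficient of variation in the 4-library fit was 0.683, and 0.0434 without shFABP4 1. An exact permutation test of 2 libraries against 2 cannot give a p under 0.333.

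How far each gene stood above the background of shFABP4 1 decided what that library could show. Among 1068 coding genes that were silent elsewhere, with at least 20 background fragments expected, counted over expected fragments had a median of 0.783 and a 95th percentile of 2.90. The ratio exceeded 2.90 in 8 members, namely LAMB3 (6.23), LAMA5 (5.76), ITGA3 (4.62), ITGAE (4.50), ITGB4 (4.25), ITGA5 (3.97), ITGAV (3.71) and ITGA2B (3.57). The other 30 lay within the scatter of silent genes in that library, LAMB2 (2.38) and ITGA10 (2.24) among them. A fit was therefore also made on 1038 high-signal coding genes, those whose control level predicted at least 5 times the background in shFABP4 1, and shFABP4 2 was compared with the controls by itself.

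**Figure D2:**
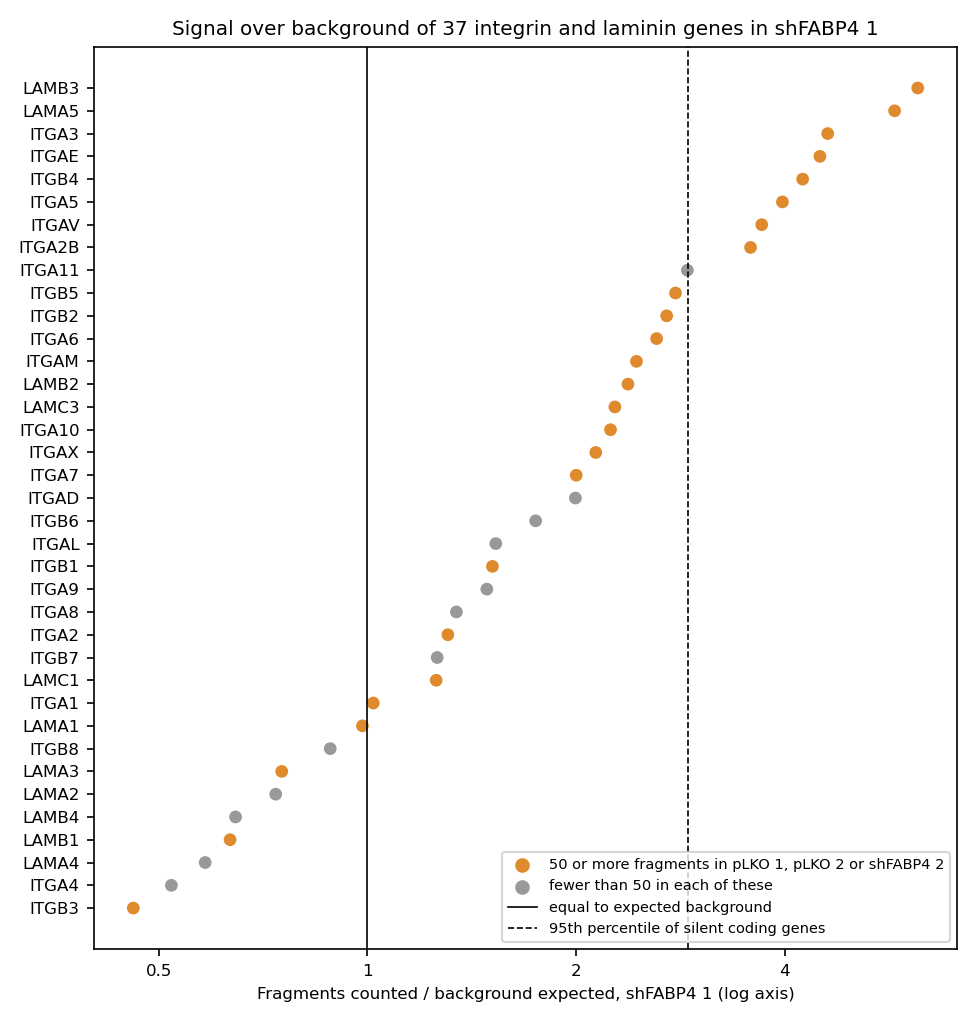
Fragments counted in shFABP4 1 divided by the background expected there from GC content and exon length (log axis) for 37 integrin and laminin genes. The solid line marks a ratio of 1 and the dashed line the 95th percentile of silent coding genes, 2.90; 8 genes lie to the right of the dashed line, LAMB3 furthest at 6.23.

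Of the laminin beta chains, LAMB3, the beta chain of the epithelial laminin made with LAMA3, was called lower among high-signal genes in shFABP4, while LAMB2, a beta chain of basement membranes of muscle, kidney and vessels, was called higher in shFABP4 2. LAMB3 lies on chr1:209614870-209652425 and LAMB2 on chr3:49121114-49133118 of GRCh38, both on the minus strand. The 250 bases before their RefSeq starts (GRCh38.p14) are shown here because these genes were called in opposite directions in shFABP4 2, with those of LAMA3, the alpha partner of LAMB3, for comparison. They span chr1:209652426-209652675 (minus strand, the most upstream of the starts listed for LAMB3), chr3:49133051-49133300 (minus) and chr18:23872770-23873019 (plus, a start inside the LAMA3 locus of the count table), and capitals mark matches on either strand to AP-1 (TGANTCA), a GC box (GGGCGG) and a TATA box (TATAAA).
LAMB3: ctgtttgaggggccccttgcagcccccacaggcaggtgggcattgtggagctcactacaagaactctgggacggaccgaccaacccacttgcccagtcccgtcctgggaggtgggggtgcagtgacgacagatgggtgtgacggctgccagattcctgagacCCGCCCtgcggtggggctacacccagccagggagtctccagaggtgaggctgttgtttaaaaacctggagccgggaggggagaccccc
LAMB2: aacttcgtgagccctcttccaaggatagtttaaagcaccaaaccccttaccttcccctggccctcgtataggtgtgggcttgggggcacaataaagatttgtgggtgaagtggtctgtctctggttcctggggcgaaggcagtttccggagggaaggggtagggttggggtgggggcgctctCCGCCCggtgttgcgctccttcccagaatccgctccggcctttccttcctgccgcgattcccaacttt
LAMA3: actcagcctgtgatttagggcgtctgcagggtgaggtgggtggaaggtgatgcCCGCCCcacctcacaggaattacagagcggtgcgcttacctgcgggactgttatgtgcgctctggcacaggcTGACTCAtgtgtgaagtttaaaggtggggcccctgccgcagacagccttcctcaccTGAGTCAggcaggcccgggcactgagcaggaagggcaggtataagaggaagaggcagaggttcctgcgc
Each window holds 1 GC box match on the reverse strand, and GC boxes occur in 42.3% of 27305 RefSeq promoter windows of this length. AP-1 matches stand only in the LAMA3 window, which has 2; 6.60% of all windows have at least 1, and TATAAA occurs in 11.1%. No 2 motifs overlap in these windows. Of the 38 members 26 matched the promoter table; 13 of them hold a GC box, 1 an AP-1 match and 1 a TATAAA. These are matches of letters, not measured sites.

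LAMB3 had 10339 and 15725 fragments in pLKO 1 and 2, 469 in shFABP4 1 (background 75.3) and 10474 in shFABP4 2. Scaled on the high-signal genes, these were 1796 and 1778 CPM in the controls and 1103 and 969 CPM in shFABP4 1 and 2. Both shFABP4 libraries lay below both controls, and they did so under each of the 4 scalings tried. The pLKO mean was 1787 ± 12.9 CPM (SD, n = 2) and the shFABP4 mean 1036 ± 94.4 CPM (SD, n = 2).

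In the high-signal fit LAMB3 fell by 0.79 on the log2 scale (SE 0.14, edgeR adjusted p = 0.0371), where 11.8% of the 1038 genes were called lower and 10.4% higher. It was the 1 member called of the 3 in that set, the others being ITGA3 and ITGA5. The adjusted p lost the threshold without pLKO 1 (0.460) and without pLKO 2 (0.449), with the set drawn at 2 times (0.0758) or 10 times (0.0690) the background, with a correction for GC content and length (0.0612) and with scaling by total counts (0.457). Over all 4 libraries and all genes, the log2 fold change was -2.13 (SE 1.19, edgeR adjusted p = 0.424). In shFABP4 2 against pLKO it was -1.40 (SE 0.03, edgeR adjusted p = 1.07e-52).

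LAMB2 had 1472 and 2375 fragments in the controls, 308 in shFABP4 1 (background 130) and 15189 in shFABP4 2. On the TMM scale these were 204, 215, 73.4 and 785 CPM, so that shFABP4 1 lay below the controls and shFABP4 2 above. On the high-signal scale they were 256, 269, 724 and 1406 CPM, or 251, 261, 501 and 1365 CPM with background subtracted, and both shFABP4 libraries lay above both controls. The side of shFABP4 1 thus turned with the scaling. The log2 fold change of LAMB2 was 1.03 over all 4 libraries (SE 1.29, edgeR adjusted p = 0.676) and 1.90 in shFABP4 2 alone (SE 0.04, edgeR adjusted p = 4.37e-56).

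A ratio inside a library does not depend on its scaling. The share of LAMB2 in the fragments of LAMB2 and LAMB3 together, a pair chosen after the values were seen, was 12.5% in pLKO 1 (exact 95% binomial interval 11.9 to 13.1) and 13.1% in pLKO 2 (12.6 to 13.6). It was 59.2% in shFABP4 2 (58.6 to 59.8), above both controls; intervals cover counting error only, since fragments are not counted as unique molecules. In shFABP4 1 it was 39.6% (36.2 to 43.2), or 31.2% after subtracting background, but background alone would give 63.2% there and LAMB2 lies within the scatter of silent genes, so no direction is drawn from that library. Per kb, LAMB3 made up 91.1% and 90.7% of laminin beta RNA in the controls and 50.3% in shFABP4 2, where LAMB2 made up 49.4%.

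**Figure D3:**
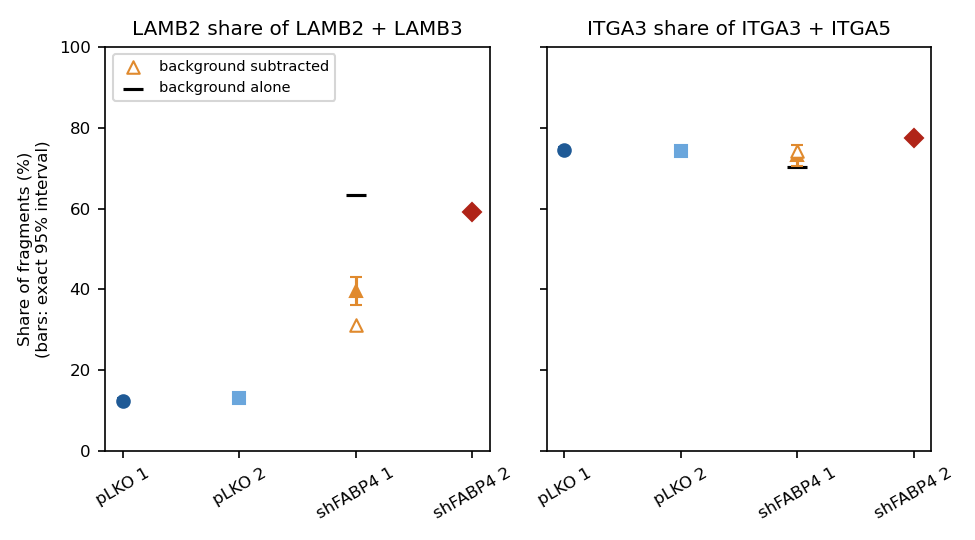
Share of fragments (%) taken by LAMB2 within LAMB2 and LAMB3 (left) and by ITGA3 within ITGA3 and ITGA5 (right) in each library, with exact 95% intervals; open triangles give shFABP4 1 after subtracting background and black bars the share that background alone would give. The LAMB2 share was 12.5% and 13.1% in the controls and 59.2% in shFABP4 2, with the 39.6% of shFABP4 1 between these and the 63.2% of background alone; the ITGA3 share lay between 73.2% and 77.5%.

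LAMB1, the beta chain of the embryonic and most widespread laminin, was scarce, with 45 and 38 fragments in the controls, 91 in shFABP4 1 (background 144) and 194 in shFABP4 2. It was called higher in shFABP4 2 (log2 1.12, SE 0.24, edgeR adjusted p = 3.63e-05), while its count in shFABP4 1 lay under the background expected. LAMB1 shares 300 exon bases with DLD on the opposite strand, and without strand in the counting their fragments there cannot be told apart. LAMB4 had 4, 6, 35 and 0 fragments in pLKO 1, pLKO 2, shFABP4 1 and shFABP4 2.

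Of the laminin alpha chains, LAMA5, the broadly made chain of adult basement membranes, took 89.7% to 91.9% of laminin alpha RNA per kb in pLKO 1, pLKO 2 and shFABP4 2. It had 834 and 1228 fragments in the controls, 1555 in shFABP4 1 (background 270) and 5791 in shFABP4 2. On the TMM scale these were 116, 111, 371 and 299 CPM, and both shFABP4 libraries lay above both controls under each of the 4 scalings. The log2 fold change over all 4 libraries was 1.56 (SE 0.67, edgeR adjusted p = 0.392), and in shFABP4 2 alone 1.40 (SE 0.05, edgeR adjusted p = 6.77e-41). At a transcript GC content of 66.4%, LAMA5 belongs to the GC-rich genes where shFABP4 1 held most background. It shares 244 exon bases with ADRM1 on the opposite strand, which had 4456, 7065, 316 and 6517 fragments.

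LAMA3, the alpha chain of the LAMB3 laminin, had 62 and 116 fragments in the controls, 116 in shFABP4 1 (background 154) and 511 in shFABP4 2. In shFABP4 2 it was called higher (log2 1.44, SE 0.16, edgeR adjusted p = 4.08e-13) while its partner LAMB3 was called lower. Counts of LAMA1, the alpha chain of the early embryonic laminin, were 1 and 11 in the controls and 105 in shFABP4 2, with 166 in shFABP4 1 beside a background of 169. It too was called higher in shFABP4 2 (log2 3.04, SE 0.43, edgeR adjusted p = 5.28e-09). LAMA2 and LAMA4, chains of muscle and vessel laminins, stayed at 26 and 9 fragments or fewer outside shFABP4 1.

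Among the gamma chains, LAMC1, which is part of most laminins, had 458, 679, 82 and 1455 fragments in pLKO 1, pLKO 2, shFABP4 1 (background 65.2) and shFABP4 2. Its log2 fold change in shFABP4 2 was 0.27 (SE 0.07, edgeR adjusted p = 0.000763), and 0.12 after correction for GC content and length, where it was no longer called (edgeR adjusted p = 0.149). LAMC3 had 79, 167, 384 and 322 fragments in the same order and was not called in shFABP4 2 on the TMM scale (log2 0.32, SE 0.16, edgeR adjusted p = 0.0751). It was called higher there with total-count scaling (0.56), high-signal scaling (0.84) and GC and length correction (0.69).

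LAMB3 and its alpha partner LAMA3 were far from equal in RNA. Per kb of merged exon, the ratio of LAMB3 to LAMA3 was 520 and 423 in the controls and 63.9 in shFABP4 2. The ratio in shFABP4 2 lay below that of both controls; in shFABP4 1 LAMA3 lay within the background scatter, and no ratio is drawn from it. With the length of the longest annotated transcript in place of merged exons, the ratio of LAMB3 to LAMA3 was 413, 336 and 50.8 in the same order.

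Of the laminin-binding receptors, ITGA3 made up 98.2% to 99.3% of the alpha RNA per kb outside shFABP4 1. ITGA3 lies on chr17:50055968-50090481 of GRCh38 and had 11111 and 16662 fragments in the controls, 854 in shFABP4 1 (background 185) and 23995 in shFABP4 2. On the high-signal scale these were 1930, 1884, 2008 and 2221 CPM, with a pLKO mean of 1907 ± 32.8 (SD, n = 2) and a shFABP4 mean of 2114 ± 150 (SD, n = 2). The difference was within the error of that fit (log2 0.15, SE 0.14, edgeR adjusted p = 0.470). Its sign turned with scaling: on the TMM scale the levels were 1541, 1510, 204 and 1239 CPM, with a log2 fold change of -1.08 (SE 1.26, edgeR adjusted p = 0.653). In shFABP4 2 alone ITGA3 was called lower on the TMM scale (log2 -0.30) and higher on the high-signal scale (0.22).

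ITGA5, the fibronectin receptor chain, lies on chr12:54395261-54419266. It had 3782, 5774, 312 (background 78.6) and 6985 fragments, or 657, 653, 734 and 646 CPM on the high-signal scale. Its log2 fold change there was 0.07 (SE 0.13, edgeR adjusted p = 0.687). In shFABP4 2 alone ITGA5 was called lower on the TMM scale (log2 -0.54) and was not called on the high-signal scale (edgeR adjusted p = 0.652). ITGA3 and ITGA5 were also a pair chosen after the values were seen. The share of ITGA3 in both together was 74.6% in pLKO 1 (73.9 to 75.3) and 74.3% in pLKO 2 (73.7 to 74.8). It was 77.5% in shFABP4 2 (77.0 to 77.9), above both control intervals, and 73.2% in shFABP4 1 (70.6 to 75.8). Background alone would give 70.2%. Shares were computed for 5 such pairs. ITGB4 within ITGB4 and ITGB5 went from 15.9% and 14.0% in the controls to 38.1% in shFABP4 2 and 73.7% in shFABP4 1, where background alone would give 64.8%. ITGA10 within ITGA10 and ITGA2 was 72.8% and 73.4% in the controls and 92.2% in shFABP4 2, and LAMA5 within LAMA5 and LAMA3 was 93.1%, 91.4% and 91.9%. The share thus differed between shFABP4 2 and the controls most for LAMB2, then for ITGB4 and ITGA10, and little for ITGA3 and LAMA5.

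ITGB4, the hemidesmosome beta chain on chr17:75721328-75757818, was higher in both shFABP4 libraries. It had 284 and 406 fragments in the controls, 542 in shFABP4 1 (background 128) and 3156 in shFABP4 2, or 39.4, 36.8, 129 and 163 CPM on the TMM scale. Both shFABP4 libraries lay above both controls under each of the 4 scalings. The log2 fold change was 1.94 over all 4 libraries (SE 0.52, unadjusted p = 0.0173, edgeR adjusted p = 0.391) and 2.10 in shFABP4 2 alone (SE 0.07, edgeR adjusted p = 8.33e-42). On the high-signal scale with background subtracted, shFABP4 1 stood at 1163 CPM against 284 in shFABP4 2, so the 2 shFABP4 libraries differed widely in size.

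Its partner ITGA6, the other laminin receptor chain of epithelia, was scarce: 40, 72, 88 (background 33.7) and 251 fragments. Both shFABP4 libraries lay above both controls under each scaling, but ITGA6 in shFABP4 1 lay within the scatter of silent genes (2.61 times the background). In shFABP4 2 ITGA6 was called higher (log2 1.08, SE 0.20). Over all 4 libraries the log2 fold change was 1.49 (SE 0.55, edgeR adjusted p = 0.391). ITGA7, the laminin receptor chain of muscle, had 14, 35, 241 (background 120) and 51 fragments and a log2 fold change of -0.01 in shFABP4 2 (SE 0.37, edgeR adjusted p = 0.986).

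ITGA10, a collagen receptor chain best known from cartilage, was the most abundant collagen-binding chain and was higher in shFABP4 2. It lies on chr1:145891208-145910111 and had 364 and 571 fragments in the controls, 149 in shFABP4 1 (background 66.4) and 3635 in shFABP4 2. On the TMM scale these were 50.5, 51.8, 35.5 and 188 CPM; on the high-signal scale 63.2, 64.6, 350 and 336 CPM, or 62.0, 62.8, 232 and 327 with background subtracted. As for LAMB2, shFABP4 1 lay below the controls on the former scale and above on the latter. The log2 fold change was 1.13 over all 4 libraries (SE 0.92, edgeR adjusted p = 0.530) and 1.87 in shFABP4 2 alone (SE 0.06, edgeR adjusted p = 8.12e-41). Its share of collagen-binding alpha RNA per kb was 71.5% and 71.9% in the controls and 90.8% in shFABP4 2.

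The other collagen receptor chains were scarcer. ITGA2, the platelet and epithelial collagen receptor, had 136, 207, 52 (background 39.8) and 308 fragments and was not called in shFABP4 2 (log2 -0.24, SE 0.15, edgeR adjusted p = 0.159), but was called lower with the correction for GC content and length (log2 -0.65, edgeR adjusted p = 4.44e-05). ITGA1 had 97, 153, 72 (background 70.6) and 361 fragments; its log2 fold change of 0.45 in shFABP4 2 (SE 0.15, edgeR adjusted p = 0.00896) became 0.01 with the correction for GC content and length. ITGA1 also shares 499 exon bases with PELO on the same strand, which had 630, 901, 33 and 2446 fragments. ITGA11 had 8, 14, 243 (background 83.9) and 5 fragments and was called lower in shFABP4 2 (log2 -2.17, SE 0.88, edgeR adjusted p = 0.0259), opposite in sign to the DESeq2 call over all 4 libraries. The edgeR call was lost with high-signal scaling (log2 -1.67, edgeR adjusted p = 0.0871).

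ITGAV, the alpha chain of the vitronectin receptors and of the integrins that activate latent TGF-beta, lies on chr2:186590056-186680901. It had 435, 691, 116 (background 31.3) and 2292 fragments, which on the TMM scale were 60.3, 62.6, 27.7 and 118 CPM. With high-signal scaling the values were 75.6, 78.1, 273 and 212 CPM, or 74.1, 76.0, 238 and 206 with background subtracted, so both shFABP4 libraries then lay above both controls. The log2 fold change was 0.25 over all 4 libraries (SE 0.82, edgeR adjusted p = 0.883) and 0.94 in shFABP4 2 (SE 0.07, edgeR adjusted p = 1.14e-21), or 0.50 there after the correction for GC content and length. Among RGD-binding alpha RNA per kb, ITGAV made up 9.13% and 9.51% in the controls and 22.3% in shFABP4 2, while ITGA5 made up 88.4%, 88.5% and 75.6%.

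ITGA2B, the platelet fibrinogen receptor chain, had 80, 95, 384 (background 108) and 147 fragments. Platelet markers (5 genes) summed to 2.22, 2.31, 48.8 and 0.685 CPM in the same libraries, with PPBP and GP9 at 0 outside shFABP4 1. ITGA2B was not called in shFABP4 2 (log2 -0.35, SE 0.21, edgeR adjusted p = 0.133).

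The beta chains that pair with ITGAV did not move together. ITGB5, the most abundant beta chain per kb with 67.5% and 70.5% of beta RNA in the controls and 55.8% in shFABP4 2, had 1499, 2496, 193 (background 69.3) and 5132 fragments. It was called higher in shFABP4 2 by 0.28 (SE 0.04, edgeR adjusted p = 5.82e-08), with 208, 226 and 265 CPM in pLKO 1, pLKO 2 and shFABP4 2 on the TMM scale. ITGB3, the beta partner of both ITGAV and ITGA2B, had 342, 488, 31 (background 67.5) and 526 fragments and was called lower in shFABP4 2 (log2 -0.75, SE 0.10, edgeR adjusted p = 1.52e-09). ITGB6 and ITGB8, the beta chains of the TGF-beta activating receptors, had at most 5 and 2 fragments outside shFABP4 1.

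ITGB1, the common partner of the alpha chains for laminin, collagen and fibronectin, had 175, 318, 84 (background 55.4) and 898 fragments. It was called higher in shFABP4 2 (log2 0.79, SE 0.11, edgeR adjusted p = 8.27e-10), and by 0.34 after the correction for GC content and length. Per kb of merged exon, ITGA3 exceeded ITGB1 94.3 and 77.8 times in the controls and 39.7 times in shFABP4 2. With the longest annotated transcript as the length these ratios were 43.8, 36.2 and 18.5, since the merged exons of ITGB1 span 14561 bases. ITGB1 also shares 401 exon bases with ITGB1-DT on the opposite strand. ITGB1 was thus scarce beside ITGA3 in each of these libraries under both lengths.

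The integrins of leukocytes were low. ITGAE, the chain that binds E-cadherin, was the exception with 418, 659, 316 (background 70.3) and 966 fragments, and its log2 fold change in shFABP4 2 was -0.24 (SE 0.08, edgeR adjusted p = 0.00511) on the TMM scale and 0.28 on the high-signal scale. ITGAE shares 427 exon bases with HASPIN on the opposite strand. ITGB2, the beta chain of all leukocyte integrins of the LFA and Mac type, had 10, 7, 301 (background 111) and 77 fragments and was called higher in shFABP4 2 (log2 2.07, SE 0.42, edgeR adjusted p = 1.52e-05), but it shares 303 exon bases with ITGB2-AS1, at 46, 64, 82 and 206 fragments. ITGAM had 25, 21, 148 and 76 fragments and ITGAX 33, 35, 245 and 74, and neither was called in shFABP4 2 on the TMM scale. ITGAM was called higher there with total-count scaling (log2 0.86), high-signal scaling (1.13) and GC and length correction (0.77). The leukocyte marker PTPRC was at 0, 2, 30 and 0 fragments in the same libraries.

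The 12 remaining members were ITGA4, ITGA8, ITGA9, ITGA11, ITGAD, ITGAL, ITGB6, ITGB7, ITGB8, LAMA2, LAMA4 and LAMB4. They had 1 to 8 fragments each in pLKO 1, 0 to 14 in pLKO 2 and 0 to 26 in shFABP4 2, summing to 41, 50 and 71. In shFABP4 1 the same genes had 28 to 245 fragments each and summed to 1170, beside an expected background of 875. Their ratios to background ran from 0.521 to 2.90 with a median of 1.30, all within the scatter of silent coding genes. A count of 0 allows up to 3 fragments, or 0.217 CPM in pLKO 2, 1.18 in shFABP4 1 and 0.147 in shFABP4 2 per library total. ITGA4, at 1, 0, 28 and 19 fragments, was alone among these in being called higher in shFABP4 2. Its ratio per library total was 21.2 against 1 control fragment (exact 95% counting interval 3.37 to 882). ITGA4 passed the low-count filter of that fit only through shFABP4 2, so it could only be called higher and nothing is drawn from its call.

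Compared with the controls by itself, shFABP4 2 had 15 members called higher, 6 called lower and 9 not called among the 30 tested. Of all 15301 genes in that fit 34.2% were called higher and 32.7% lower, so that being called was common; the test rests on the spread of the 2 pLKO libraries, and shFABP4 2 is assumed to vary as they do. It compares that library with the controls and is not a replicated test of the knockdown. The median log2 fold change was 0.38 over the members and 0.04 over all genes. Of 20 integrins tested 9 were called higher and 5 lower, and of 10 laminins 6 higher and 1 lower.

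Scaling moved these counts. Scaled by total counts 17 members were called higher and 4 lower (all genes 42.9% and 26.5%), on the high-signal genes 19 and 2 (all genes 52.7% and 19.9%), and with the correction for GC content and length 15 and 6 (all genes 33.5% and 34%). The median of all genes was 0.28 with total counts and 0.56 on the high-signal scale. ITGA4, ITGA6, ITGA10, ITGAV, ITGB1, ITGB2, ITGB4, ITGB5, LAMA1, LAMA3, LAMA5, LAMB1 and LAMB2 were called higher in all 4 versions, and LAMB3 and ITGB3 lower. ITGA4 among them could only be called higher, as it passed the filter only through shFABP4 2. The share of all genes called in all 4 versions was not computed, so no excess among the members is drawn from this list.

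With all 4 libraries, members were also counted by whether both shFABP4 libraries lay on the same side of both controls. On the TMM scale 12 of the 30 lay above both controls and 5 below (all genes 28.5% and 26.1%). High-signal scaling put 23 above and 1 below (all genes 63.8% and 4.13%), and with background subtracted 15 lay above and 2 below (all genes 44.8% and 12.2%). LAMA5, ITGB4, ITGA6, ITGB2, LAMC3 and ITGAM lay above under each of the 4 scalings, and LAMB3 alone lay below under each. The share of all genes that did so was not computed. In shFABP4 1, ITGA6, ITGB2, LAMC3 and ITGAM stood at 2.61, 2.70, 2.28 and 2.45 times the background, within the scatter of silent genes. No direction is drawn from that library for them.

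shFABP4 2 also differed from the controls by GC content. Genes with a GC content of 60% or more took 25.1% of coding fragments in each control, 26.3% in shFABP4 1 and 20.6% in shFABP4 2. In shFABP4 2 the median log2 fold change of all tested genes ran from 0.45 under 40% GC to -0.54 at 60% or more. The rises of LAMB2 (GC content 60.3%), ITGB4 (63.7%) and LAMA5 (66.4%) went against this trend, and were 2.22, 2.51 and 1.80 with the correction for GC content and length. ITGAV (38.3%) and the likewise GC-poor ITGB1 went with it and were smaller with the correction, and the fall of LAMB3 (58.9%) was -1.05. Ratios and shares between genes of unlike GC content were not corrected and can carry this trend. Such are ITGA3 to ITGB1, LAMB3 to LAMA3 (50.7%) and the shares of ITGAV and ITGA5 (54.5%).

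**Figure D4:**
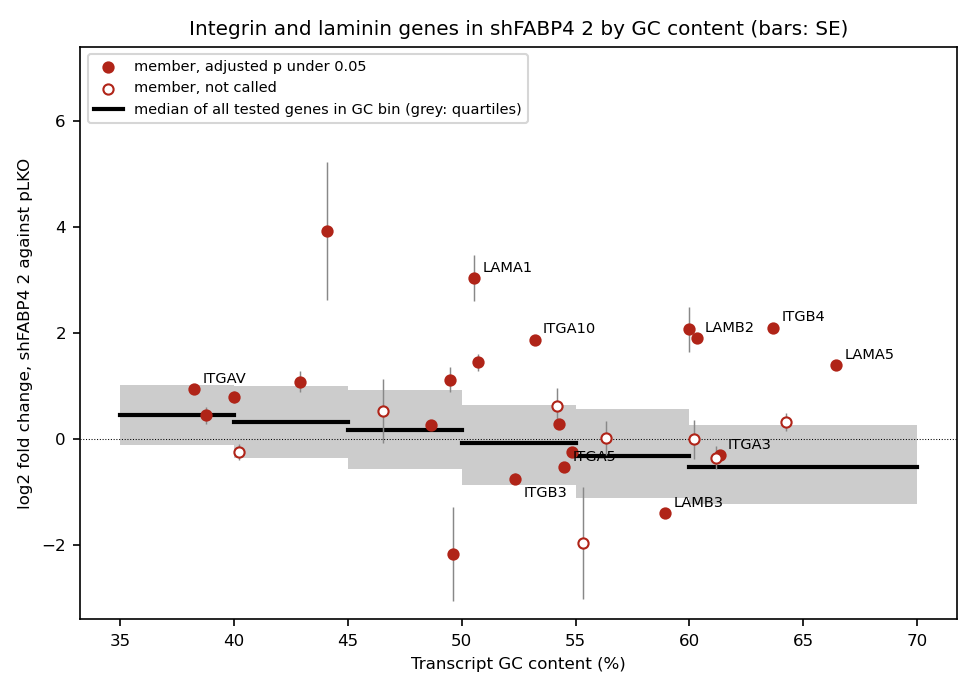
Log2 fold change in shFABP4 2 against pLKO (TMM scaling, bars give the SE) against transcript GC content (%) for 29 integrin and laminin genes tested; filled points have an adjusted p under 0.05, and black lines with grey bands give the median and quartiles of all tested genes in each GC bin. The medians fall from 0.45 to -0.54, while LAMB2 (1.90), ITGB4 (2.10) and LAMA5 (1.40) lie above the bands and LAMB3 (-1.40) below.

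The partners of these receptors were read from 4 lists. Over all 4 libraries and all genes, edgeR called 0 of the 76 list genes tested, and DESeq2 called 7, where it called 5.08% of all genes. With edgeR, 6 of 34 genes of the intracellular adhesion complex, 10 of 16 ligands of basement membrane and matrix, 0 of 14 other laminin receptors and 1 of 12 membrane partners had an unadjusted p under 0.05, where 12.3% of all genes lay. The ligand list summed to 605 and 599 CPM in pLKO 1 and 2, 864 in shFABP4 2 and 1460 in shFABP4 1, background included. How far the 10 of 16 rest on that background was not tested. The high-signal fit called 2 of the 13 list genes in its set, SPP1 higher and SDC4 lower. Of all 1038 genes in that set it called 10.4% higher and 11.8% lower, so these 2 calls show no excess among the lists. In shFABP4 2 alone, 14 adhesion complex genes were called higher and 14 lower, 13 ligands higher and 3 lower, 4 other laminin receptors higher and 7 lower, and 3 membrane partners higher and 7 lower, where 34.2% of all genes were called higher and 32.7% lower. The 14 and 14 of 34 in the adhesion complex are near those shares.

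Of the ligands, SPP1, the RGD protein osteopontin, had 1431, 2204, 201 (background 36.5) and 7514 fragments and rose by 1.24 on the log2 scale in the high-signal fit (SE 0.24, edgeR adjusted p = 0.0434); its adjusted p was 0.306 without pLKO 1, 0.305 without pLKO 2, 0.159 with the set drawn at 2 times the background, 0.125 with the correction for GC content and length and 0.794 with scaling by total counts. MFGE8, a milk fat globule protein that bridges cells through ITGAV integrins, had 1745, 2727, 288 (background 72.4) and 1043 fragments. Its log2 fold change was -2.00 over all 4 libraries (SE 0.61, edgeR adjusted p = 0.391), or 0.33 with high-signal scaling and 0.22 with background also subtracted, and -2.18 in shFABP4 2 (SE 0.06, edgeR adjusted p = 4.93e-49). COL18A1, a basement membrane collagen, had 195, 299, 444 (background 160) and 1271 fragments, a log2 fold change of 1.28 in shFABP4 2 (SE 0.09, edgeR adjusted p = 2.17e-21).

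Of the other laminin receptors, SDC4, a heparan sulfate proteoglycan of focal adhesions, had 4806, 7401, 182 (background 20.2) and 5774 fragments and fell by 0.79 in the high-signal fit (SE 0.16, edgeR adjusted p = 0.0466). That p was 0.419 without pLKO 1, 0.421 without pLKO 2, 0.135 with the set drawn at 2 times the background, 0.0607 with RLE scaling and 0.454 with scaling by total counts. BCAM, a receptor for the LAMA5 chain, had 289, 467, 279 (background 94.3) and 6617 fragments and was called higher in shFABP4 2 (log2 3.05, SE 0.06, edgeR adjusted p = 1.14e-58). SGCE, a sarcoglycan, had 163, 242, 107 (background 79.5) and 3288 fragments (log2 2.93 in shFABP4 2, SE 0.07, edgeR adjusted p = 4.61e-49). BCAM and its ligand chain LAMA5 were thus both called higher in that library.

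In the adhesion complex, the zyxin relative LPP had 61, 75, 138 (background 97.6) and 931 fragments, and the tensin TNS3 had 90, 147, 219 (background 191) and 1724. Both were called higher in shFABP4 2, LPP by 2.68 (SE 0.14, edgeR adjusted p = 4.02e-28) and TNS3 by 2.78 (SE 0.10, edgeR adjusted p = 1.31e-39). Of the membrane partners, the tetraspanin CD63 had 2948, 4926, 180 (background 25.8) and 1143 fragments, below the controls in both shFABP4 libraries on the TMM scale at 42.9 and 59.0 CPM against 409 and 447. Its log2 fold change was -3.07 over all 4 libraries (SE 0.73, edgeR adjusted p = 0.391) and -1.09 in the high-signal fit (SE 0.75, edgeR adjusted p = 0.331). CD63 was called by DESeq2 over all genes (log2 -3.14, adjusted p = 0.00554) and, with the replicate block, in the high-signal fit (log2 -1.36, edgeR adjusted p = 0.000436). LRP1, an endocytic receptor, had 393, 606, 1616 (background 394) and 1346 fragments and a log2 fold change of 0.35 in shFABP4 2 (SE 0.07, edgeR adjusted p = 3.54e-05).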

How the data were processed

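RNA from 4 Daoy libraries was prepared with TRIzol, mRNA was taken with capture beads and fragmented with Tn5, per the labels' protocols. The submitters' processing notes name FastQC, HISAT, StringTie and the build GRCh38, with no version. What the authors deposited are unnormalised fragment counts by gene name; per the file headers, featureCounts v2.0.0 counted over exons of GENCODE 38 and no strand option was set. The ANK2 row, broken over 7 lines, was left out. Transcript GC content came from GENCODE 29 (63.6% of gene names, 38 of 38 members).

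The test was edgeR's quasi-likelihood F test (version 4.0.16, R 4.3.3; two-sided; TMM scaling; filterByExpr at counts of 10 and totals of 15), and p-values were adjusted by Benjamini-Hochberg over all genes tested. DESeq2 1.42.0 was an alternative. Log2 fold changes are shFABP4 minus pLKO. Background in shFABP4 1 was taken per kb in 6 bins of GC content. Pooled spread of the pLKO pair served where shFABP4 2 was tested alone. GC content and length were corrected with splines of 4 degrees of freedom per library. Over 13291 genes the pLKO pair had a chi-square of 2.16 per degree of freedom, above sampling noise, so they were not treated as repeat deposits of 1 library; nothing in the labels says whether they are separate cultures. With 2 libraries a group, mean ± SD rests on 2 values.

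Members with at least 50 fragments in pLKO 1, pLKO 2 or shFABP4 2 were given by library, except that 1 item is not reported here, although counts over all members include it, and of each pathway list the 2 such genes with the smallest p, with SPP1 and SDC4 added because they passed the test among high-signal genes. Members and lists were chosen with earlier results of these data known.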

Additional observations from a re-analysis of the deposited data

How the results depend on the processing

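With all 4 libraries the count of genes called, 0 with edgeR, was 69 without the low-count filter and 719 with DESeq2, and leaving out each library in turn gave 0 to 23894, with 10242 without shFABP4 1 and 23894 without shFABP4 2. The count of members called, 0, was 4 with DESeq2 and 0 to 37 with 1 library left out, with 21 without shFABP4 1 and 37 without shFABP4 2. Among high-signal genes the count of 231 was 2 with total-count scaling, 0 with the set at 2 times the background, 373 with the set drawn from pLKO and shFABP4 2, 368 with DESeq2 and 0 to 951 with 1 library left out. The count of 1 member called there, LAMB3, was 0 with total-count scaling, with the set at 2 or 10 times the background and with GC and length correction, and 0 to 2 with 1 library left out. In shFABP4 2 alone, scaling on high-signal genes moved the split of all genes called from 34.2% higher and 32.7% lower to 52.7% and 19.9%.

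Whether the replicate numbers pair the libraries could not be settled. With 2 pairs, the deviations of same-numbered libraries correlated at 0.0106. The deviation between the shFABP4 libraries includes the background of shFABP4 1, so a low correlation cannot exclude pairing. With the replicate block 28 genes were called over all genes, LAMB3 kept its call among high-signal genes (edgeR adjusted p = 0.0441), CD63 gained one there (0.000436), and the log2 fold changes of ITGAV and SPP1 over all genes became -0.10 and -0.54.

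Directions over all genes that turned were those of LAMC1 (0.054 with total-count scaling, 1.06 with high-signal scaling, 0.24 with background also subtracted), ITGA2 (0.24, 1.67 and 0.41 in the same order), ITGB5 (0.78 with high-signal scaling, 0.61 with background subtracted), ITGA5 (0.075 and 0.0031), ITGA3 (0.15 and 0.12), MFGE8 (0.33 and 0.22) and ITGB3 (0.080 with high-signal scaling). The correction for GC content and length turned ITGAV (-0.13), ITGA1 (-0.38), ITGB1 (-0.26), ITGAE (-0.037) and SPP1 (-0.21), and omission of the low-count filter turned ITGAE (-0.39). With 1 library left out the values ran from -1.73 to 1.87 for ITGA10, -2.87 to 0.27 for LAMC1, -2.36 to 0.94 for ITGAV, -2.72 to 1.90 for LAMB2, -3.44 to 0.28 for ITGB5, -0.87 to 0.45 for ITGA1, -1.62 to 0.79 for ITGB1, -0.0086 to 3.22 for ITGA7, -0.85 to -0.24 for ITGAE, -0.35 to 2.04 for ITGA2B, -3.26 to 0.96 for SPP1, -0.51 to 3.05 for BCAM and -1.002 to 2.93 for SGCE. In the high-signal fit, ITGA5 was -0.85 with total-count scaling, -0.14 with the set at 2 times the background and -0.053 with the set from pLKO and shFABP4 2, and ITGA3 was -0.69 and -0.042 under the first and the second of these. In shFABP4 2 alone, total-count scaling turned ITGA2 (0.0040), ITGA7 (0.24) and ITGAE (0.0047), high-signal scaling turned ITGA2 (0.28), ITGA7 (0.51), ITGAE (0.28), ITGA2B (0.17) and ITGA3 (0.22), and GC and length correction turned ITGA7 (0.32) and ITGA2B (0.030). Beyond these, 452 values of single genes kept their direction and side of the threshold, 65 passed it newly and 22 lost it. The cause was not tested for any of these changes. In shFABP4 1, which was both the shallowest library and the one with the background, 30 of 38 members lay within the scatter of that background. The high-signal and background settings, and those that combine another scaling or the correction for GC content and length with leaving out shFABP4 1, were chosen with the data seen.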
